A study of Mus musculus with 2 samples.

Results

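The CC chemokines described here were Ccl6 and its relatives Ccl2, Ccl3, Ccl4, Ccl5, Ccl7, Ccl8, Ccl9, Ccl11 and Ccl12, 10 of the 20658 genes that had a named probe on a mouse whole-genome array. They were taken as every probe, other than control probes, whose RefSeq transcript in the array's design belonged to one of these genes. This gave 10 of 55674 probes and 19 of 59305 spots on each array. A probe that the design names without a RefSeq transcript would not be among them. The list was drawn up with the signals of these same arrays known, so the ratios of its genes are given as descriptions and no test was made on them. Each gene had 1 probe matched in this way. Ccl2 was printed at 10 spots of each array and every other gene at 1 spot.

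The study asked how tachykinins, a family of neuropeptides that includes substance P, act on the ovary before puberty. Ovaries from mice aged 2 weeks were divided, and their portions were kept in culture for 3 days with ligands of the tachykinin receptors (TKRs), each at 1 μM, and total RNA was read on 2 single-colour arrays. The TKR agonists array held RNA from ovaries given [Sar9, Met(O2)11]-SP, an agonist of the receptor TACR1, GR-64349, an agonist of TACR2, and a peptide agonist of TACR3. The TKR antagonists array held RNA from ovaries given an antagonist of TACR1, GR-94800 for TACR2 and SB218795 for TACR3. Both groups shared the age, the culture and the concentration, and no array of untreated ovary was analysed here. The methods list the ligands singly while the study's account of the comparison speaks of the antagonists together, and which applied to the RNA of an array was not settled. The number of ovaries and, for this experiment, the mouse strain are not given in the sources used here. Each group had a single array and thus no replicate. Differences between the groups and differences between these ovaries cannot be told apart, and no p-value is given.

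Chemokines are small secreted proteins that bind G protein-coupled receptors on leukocytes and direct their migration. In the CC class the first pair of conserved cysteines lies side by side. Ccl2, Ccl7, Ccl8 and Ccl12 belong to the monocyte chemoattractant proteins, Ccl11 is an eotaxin, Ccl3, Ccl4 and Ccl5 are inflammatory chemokines, and Ccl6 and Ccl9 are closely related ligands of CCR1 found in rodents. In the ovary, macrophages are the most abundant leukocytes, and chemokines of this class are known from the recruitment of leukocytes around ovulation and luteal regression.

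All 10 genes lie on mouse chromosome 11 in 2 clusters. In the RefSeq order of genes for GRCm38 the listed genes of the first cluster read Ccl2, Ccl7, Ccl11, Ccl12, Ccl8. Those of the second read Ccl5, Ccl9, Ccl6, Ccl3, Ccl4. Ccl1, a CC chemokine outside the list, is the next protein-coding gene after Ccl8. Promoter sequences of 5 of the 10 genes were matched in RefSeq's table for build GRCm38.p6, each with 250 bases before the transcription start and 50 bases from it. They are shown because they cover Ccl6, the gene with the highest ratio of the list, its neighbours Ccl9 and Ccl3, which had a high ratio and a ratio close to 0, and Ccl12 and Ccl8 of the first cluster. Each is written 5′ to 3′ on the strand of the gene, in lower case, and capitals mark the matches to the motifs named after the sequences.

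Ccl6, chr11:83593038-83593337, minus strand: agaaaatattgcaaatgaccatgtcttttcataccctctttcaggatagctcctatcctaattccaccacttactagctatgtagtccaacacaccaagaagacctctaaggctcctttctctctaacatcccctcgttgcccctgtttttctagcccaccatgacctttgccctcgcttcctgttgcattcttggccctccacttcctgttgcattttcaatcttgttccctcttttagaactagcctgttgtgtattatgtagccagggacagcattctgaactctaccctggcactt
Ccl9, chr11:83578587-83578886, minus strand: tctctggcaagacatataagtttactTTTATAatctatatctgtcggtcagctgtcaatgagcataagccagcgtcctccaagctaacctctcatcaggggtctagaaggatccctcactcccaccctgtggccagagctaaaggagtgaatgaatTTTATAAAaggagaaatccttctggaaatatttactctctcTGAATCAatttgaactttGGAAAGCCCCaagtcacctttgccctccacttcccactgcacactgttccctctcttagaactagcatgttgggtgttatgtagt
Ccl3, chr11:83649329-83649628, minus strand: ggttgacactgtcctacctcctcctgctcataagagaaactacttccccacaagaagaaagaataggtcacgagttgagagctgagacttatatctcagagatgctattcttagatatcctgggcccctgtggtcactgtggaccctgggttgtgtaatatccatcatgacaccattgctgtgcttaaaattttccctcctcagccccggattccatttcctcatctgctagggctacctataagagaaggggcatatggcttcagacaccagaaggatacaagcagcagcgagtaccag
Ccl12, chr11:82101595-82101894, plus strand: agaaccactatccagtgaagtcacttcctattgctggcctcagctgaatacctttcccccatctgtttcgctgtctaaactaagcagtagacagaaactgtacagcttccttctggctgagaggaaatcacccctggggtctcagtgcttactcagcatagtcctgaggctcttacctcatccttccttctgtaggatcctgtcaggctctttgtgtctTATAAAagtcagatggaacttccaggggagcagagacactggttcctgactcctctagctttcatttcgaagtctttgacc
Ccl8, chr11:82114935-82115234, plus strand: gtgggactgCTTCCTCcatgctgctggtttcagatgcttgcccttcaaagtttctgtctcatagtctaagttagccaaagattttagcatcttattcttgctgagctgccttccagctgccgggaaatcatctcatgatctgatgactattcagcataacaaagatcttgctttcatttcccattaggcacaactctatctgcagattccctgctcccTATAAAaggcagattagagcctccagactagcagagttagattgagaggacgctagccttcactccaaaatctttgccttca

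The motifs were searched on both strands. The TATA box was read as TATAAA, AP-1 as TGANTCA, STAT as TTCNNNGAA, PU.1, a transcription factor of myeloid cells, as GAGGAAG, and NF-kB as its usual consensus of 10 bases. Among the 32851 promoters of the same length, TATAAA was present in 13.6%, the PU.1 letters in 13.6%, the NF-kB consensus in 8.46%, the STAT letters in 8.3% and the AP-1 letters in 7.81%. The Ccl8 and Ccl12 promoters had TATAAA with its first base 32 and 31 bases before the start. The Ccl9 promoter held TATAAA in 3 places, at 92, 94 and 224 bases before the start, where the matches at 92 and 94 overlap, together with an AP-1 match at 53 and an NF-kB match at 35 bases. Ccl8 had a PU.1 match at 241 bases before the start. In the windows of Ccl6 and Ccl3 none of these letters was found, and STAT letters were found in none of the 5 windows. These matches describe letters in a window and say nothing of binding. In pairwise alignments Ccl6 and Ccl9 shared 71.1% of 239 aligned bases, with gccctccacttcc as their longest common run, and the other 9 pairs shared 57% to 65.7%.

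Signals are given as the intensity of the spot after the scanner software's background correction, in signal units, with the software's own error of that spot. For ratios, the array's own 75th percentile was subtracted from each log2 signal, and the antagonist value was subtracted from the agonist value, so that a positive log2 ratio means higher with the agonists. The error of a ratio combines the errors of both spots and covers the reading of the array, not the spread between ovaries. A probe's intensity depends on its sequence and length is not corrected for, so the signals of different genes are not read as relative amounts of their RNA. RNA from whole tissue cannot tell more cells of a type from more RNA per cell.

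Of the 10 genes, 9 were well above background on both arrays by the software's mark, and Ccl11 was on neither. Of these 9, 5 were at least 2-fold higher with the agonists (Ccl6, Ccl12, Ccl9, Ccl7 and Ccl8), 1 was at least 2-fold lower (Ccl5), and Ccl2, Ccl3 and Ccl4 were within 2-fold. Of all probes detected in this way on both arrays, 33073 in number, 2.69% reached 2-fold in the higher direction and 0.705% in the lower one. At 4-fold, 3 of the 9 genes (Ccl6, Ccl12 and Ccl9) were higher, beside 0.384% of all probes. The median log2 ratio of the 9 was 1.15, and that of all probes was -0.10 with an SD of 0.43. The list was chosen on this contrast, so these counts are set side by side and nothing is read from them. Without scaling between the arrays the median of all probes was 0.14, and on the scale of the spike-in controls, RNAs added in known amounts, it was 0.18. Every ratio moves with that shift. At 2-fold, 79.25% of the probes past the threshold were higher with the agonists under the 75th percentile, 93.86% without scaling and 94.86% on the spike-in scale.

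**Figure D1:**
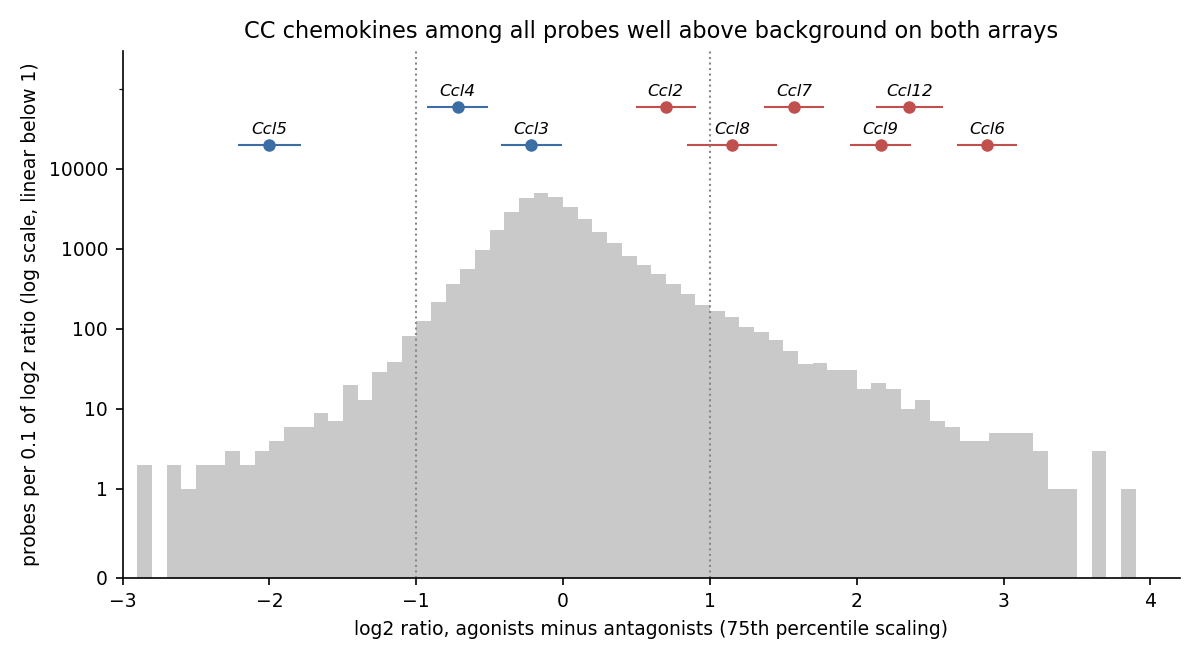
Number of probes (log axis) in each 0.1 of the log2 ratio of agonists to antagonists for the 33073 probes detected on both arrays (grey), with the 9 measured CC chemokines marked above (points, with the error of the spots as bars; height has no meaning) and 2-fold shown by dotted lines. Ccl6 lies at 2.89 and Ccl5 at -2.00, in opposite tails of the distribution.

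Ccl6 and Ccl9, ligands of CCR1 that are made by myeloid cells, are neighbouring protein-coding genes of the second cluster and were both higher with the agonists. The spot of Ccl6 (NM_009139) read 3769 ± 377 signal units with the agonists against 430 ± 43.3 with the antagonists. This was a 7.41-fold difference, a log2 ratio of 2.89 ± 0.20, and only 27 of the 33073 probes had a higher ratio. The spot of Ccl9 (NM_011338) read 758 ± 75.9 with the agonists and 143 ± 15.0 with the antagonists, which was 4.48-fold and a log2 ratio of 2.16 ± 0.21. Both genes were brighter on the agonist array. The ratio of Ccl6 ranged from 2.64 to 3.17 over 10 other ways of processing and that of Ccl9 from 1.76 to 2.44.

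The log2 ratios of the 4 monocyte chemoattractants ran from 0.70 to 2.36. Of the 4, 3 were at least 2-fold higher, beside 2.69% of all probes detected on both arrays. The list was chosen on this contrast, so nothing is read from this count. Ccl12, in mice a ligand of CCR2 that attracts monocytes, read 382 ± 38.4 with the agonists and 62.9 ± 7.77 with the antagonists (NM_011331). Its 5.13-fold difference, a log2 ratio of 2.36 ± 0.23, ranged over the other ways of processing from 1.49 to 2.63. Ccl7, which binds several CC receptors including CCR2, read 782 ± 78.3 with the agonists and 223 ± 22.7 with the antagonists (NM_013654), a 2.97-fold difference and a log2 ratio of 1.57 ± 0.21. Both genes were brighter on the agonist array. Ccl8, which in mice acts on CCR8, was read at a dim spot, at 84.9 ± 9.62 with the agonists against 32.3 ± 5.80 (NM_021443). Its log2 ratio of 1.15 ± 0.31, 2.22-fold, stood closest to the 2-fold line. It stayed past 2-fold in 9 of 10 other ways of processing and was 0.33 with the normexp background correction, which adds an offset of 50 and draws dim spots together.

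Ccl2, the main ligand of CCR2, was the gene whose reading could be checked within an array, at 10 spots of each (NM_011333). Its agonist signals ran from 2240 to 2665 with a median of 2338 and a mean of 2353 ± 121 (SD over 10 spots of 1 array). Its antagonist signals ran from 1122 to 1380 with a median of 1231 and a mean of 1227 ± 73.5 (SD over 10 spots of 1 array). No agonist spot overlapped an antagonist spot, and the difference was 1.62-fold. The log2 ratio was 0.70, with single pairs of spots from 0.62 to 0.79 and an SD of 0.058. The spots repeat the reading of the same RNA and are not ovaries. Across 284 probes printed at 10 spots the median SD of the ratio was 0.07, so the repeat error of Ccl2 was like that of other repeated probes and was below the software's error of 0.20.

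Ccl11, an eotaxin that attracts eosinophils through CCR3, was not well above background on either array. Its spot read 11.6 ± 4.02 with the agonists and 4.24 ± 4.25 with the antagonists (NM_011330). By the software's looser mark, significance over the local background, the agonist spot passed and the antagonist spot did not. The lowest probe signals well above background were 18.1 and 19.9, so no ratio is given for Ccl11.

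**Figure D2:**
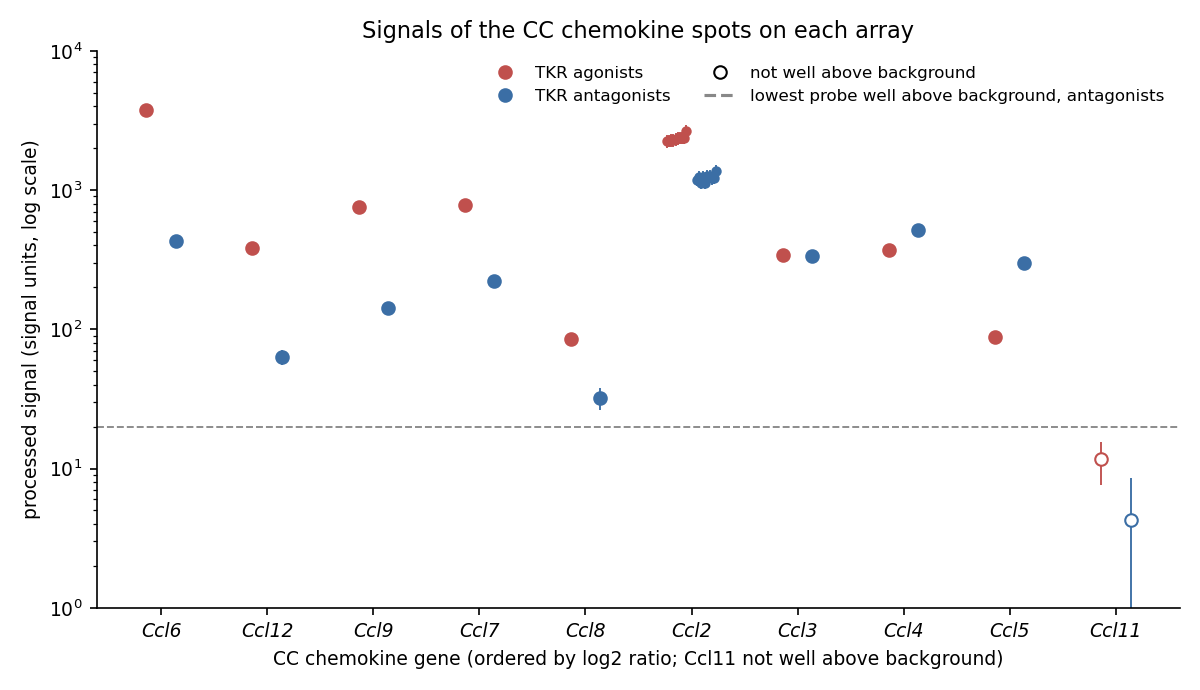
Processed signal of every CC chemokine spot (log axis, signal units) on the TKR agonists and TKR antagonists arrays, with the software's error of each spot as bars and open points for spots not well above background; the dashed line is the lowest probe signal well above background on the antagonist array, and the lower bar of Ccl11 with the antagonists stops at the axis. Ccl6 read 3769 signal units with the agonists and 430 with the antagonists, the 10 spots of Ccl2 do not overlap between the arrays, and Ccl5 ran the other way at 88.2 and 299.

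Ccl3, Ccl4 and Ccl5 had ratios below 0, though that of Ccl3 changed sign with the scaling, and Ccl5 alone passed 2-fold. Ccl5, a chemokine of T cells, natural killer cells and macrophages that binds CCR1 and CCR3 among others, read 88.2 ± 9.60 with the agonists and 299 ± 30.2 with the antagonists (NM_013653). After scaling, its agonist level was 0.250 of its antagonist level, a log2 ratio of -2.00 ± 0.21, and only 17 of the 33073 probes had a lower ratio. Its ratio ranged from -2.06 to -1.41 over the other ways of processing and was past 2-fold in all 10. Ccl5 thus ran against Ccl6 and Ccl9, its neighbours in the second cluster.

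Ccl4, which is made by activated macrophages and lymphocytes, read 369 ± 37.1 with the agonists and 513 ± 51.5 with the antagonists (NM_013652). Its log2 ratio was -0.72 ± 0.21 and stayed below 0 in all 10 other ways of processing, between -0.77 and -0.44. Ccl3, a ligand of CCR1, read 344 ± 34.7 with the agonists and 338 ± 34.1 with the antagonists (NM_011337), which overlap within their errors. Its log2 ratio of -0.22 ± 0.21 was close to the error of the spots and was above 0 without scaling, at 0.03, and on the spike-in scale, at 0.06.

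In the order of their ratios the genes ran Ccl6, Ccl12, Ccl9, Ccl7, Ccl8, Ccl2, Ccl3, Ccl4 and Ccl5. Ccl12 and Ccl9 differed by 0.20 in log2 ratio, less than the combined error of 0.31 of their spots, so their order is not settled. The step from Ccl6 to Ccl12, of 0.53 with an error of 0.31, and that from Ccl7 to Ccl8, of 0.42 with an error of 0.37, were larger than their error by less than a factor of 2. So were the steps from Ccl8 to Ccl2, of 0.45 with an error of 0.37, and from Ccl3 to Ccl4, of 0.50 with an error of 0.29. The wider gaps were those from Ccl9 to Ccl7, of 0.59 with an error of 0.29, from Ccl2 to Ccl3, of 0.91 with an error of 0.29, and from Ccl4 to Ccl5, of 1.28 with an error of 0.30. With normexp the order changed to Ccl6, Ccl9, Ccl12, Ccl7, Ccl2, Ccl8, with Ccl12 at 1.49 between Ccl9 at 1.76 and Ccl7 at 1.24, and with Ccl8 at 0.33 under Ccl2 at 0.70. These errors come from single spots and leave out the spread between ovaries. The genes are close relatives, and whether their probes also bind each other's RNA was not checked, as probe sequences were not used here.

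**Figure D3:**
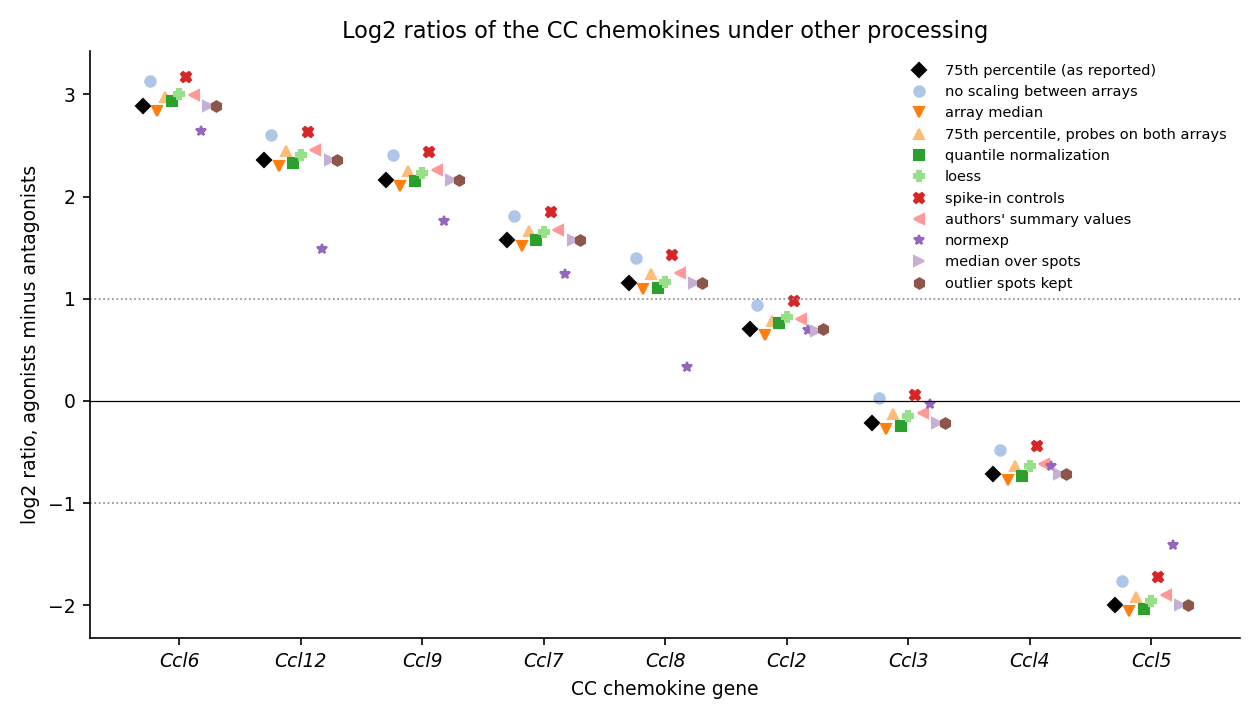
Log2 ratio of agonists to antagonists of the 9 measured CC chemokines with the 75th percentile (black diamonds) and under 10 other ways of processing (other symbols), with 2-fold shown by dotted lines. The normexp correction gave the lowest ratio for Ccl8, at 0.33, and for Ccl12, at 1.49, and Ccl3 was the gene whose ratio crossed 0.

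The ratios were next set in gene order. In the first cluster 4 of the 5 listed genes were measured, with ratios from 0.70 at Ccl2 to 2.36 at Ccl12 and a median of 1.36. In the second cluster all 5 were measured, with a median of -0.22 and a range from -2.00 at Ccl5 to 2.89 at Ccl6. The high ratios of Ccl9 and Ccl6 thus lay between Ccl5 on one side and Ccl3 and Ccl4 on the other. The 26 protein-coding genes between the listed genes of the 2 clusters, with Ccl1 counted among them, included 17 that both arrays detected. The median of these was -0.02, and Ccl1 was not detected. Of these 17, only Unc45b, a chaperone of muscle myosin, passed 2-fold, at 2.29. Heatr9, the protein-coding gene next to Ccl5, had a log2 ratio of 0.79 ± 0.32, and Wfdc17, the next one after Ccl4, had 0.16 ± 0.20.

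**Figure D4:**
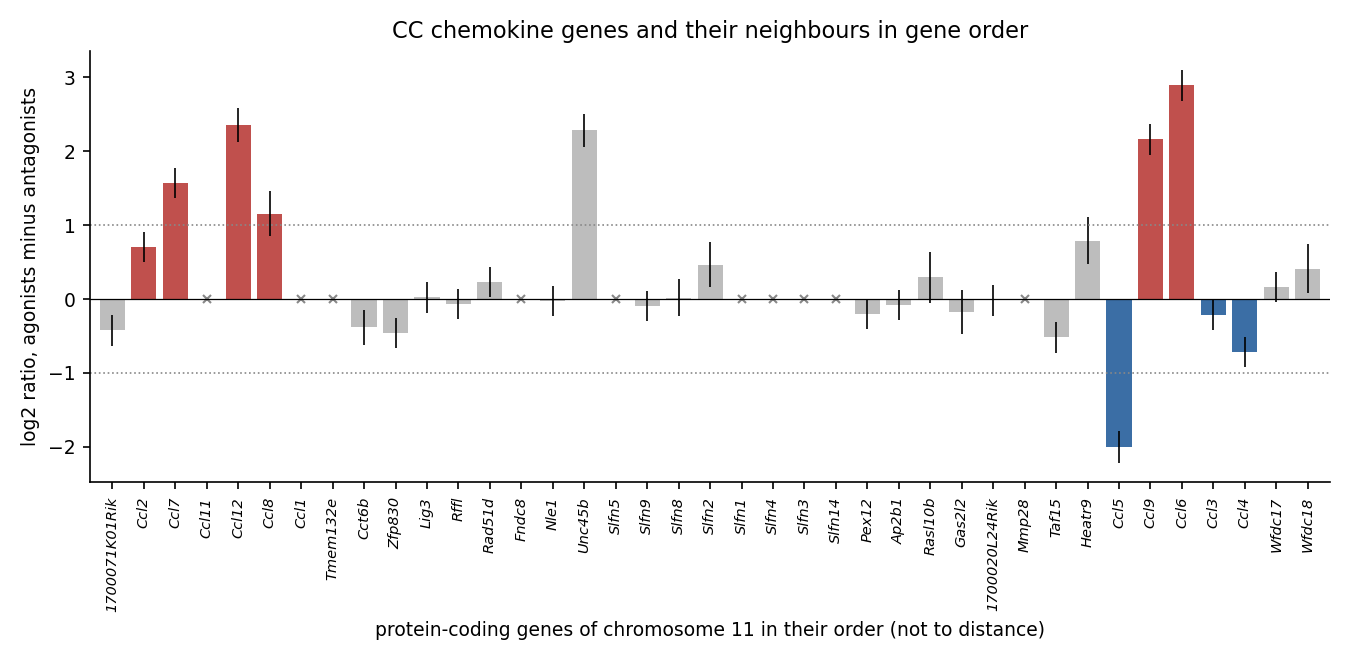
Log2 ratio of agonists to antagonists for the protein-coding genes around and between the CC chemokine clusters of chromosome 11, in gene order and not to distance. The CC chemokines of the list are in colour (above 0 red, below 0 blue) and other genes in grey, with the error of the spots as bars. Crosses mark genes not well above background on both arrays or without a value, Ccl1 among them. Ccl9 at 2.16 and Ccl6 at 2.89 stand between Ccl5 at -2.00 and Ccl3 at -0.22.

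The other CC chemokines were described by the same measure. Of 14 such genes 10 were matched to a probe and 5 were detected on both arrays, 0 of them at least 2-fold higher and 1 lower. The lower one was Ccl17, a ligand of CCR4 made by dendritic cells, at 25.6 with the agonists and 70.2 with the antagonists and a log2 ratio of -1.70 ± 0.33, which came to -0.64 with normexp. The homeostatic chemokines Ccl19, Ccl25 and Ccl27a had log2 ratios of -0.09, -0.54 and -0.02 at their brightest probes, and Ccl24, an eotaxin, had 0.40 ± 0.37. The median of these 5 was -0.09 and was above 0 in 4 of 10 other ways of processing. That of the 9 measured genes of the Ccl6 list was 1.15, but that list was chosen on this contrast, so nothing is read from the difference. Ccl1, Ccl20, Ccl22, Ccl26 and Ccl28 were not well above background.

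Most receptors for these chemokines were not detected. Ccr1, the receptor of Ccl6 and Ccl9, and Ccr2, that of Ccl2 and Ccl12, were well above background on neither array, as were Ccr1l1, Ccr4 and Ccr6. Of the 11 receptors 4 were well above background on both arrays, and 0 of these passed 2-fold. Ccr3, the receptor of Ccl11, read 40.5 with the agonists and 35.9 with the antagonists, with a log2 ratio of -0.07. Ccr8, the receptor of Ccl8, read 232 and 217, with -0.14, and its second probe was at background. Ccr7 had 0.27 and Ccr9 had -0.74. Ccr10 was well above background only with the agonists, at 29.2, and at least 1.24-fold higher there. This bound and those given below leave out the errors of the spots.

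Most atypical receptors bind chemokines without signalling through G proteins, and some remove the bound chemokine. Ackr2, which scavenges inflammatory CC chemokines such as Ccl2 and Ccl5, read 231 with the agonists and 64.7 with the antagonists. Its log2 ratio was 1.59 ± 0.23 at the brighter probe and 0.94 with normexp, while the second probe was at background. Ccrl2 had 0.33 ± 0.25. Ackr1 was just above the limit on the agonist array, at 21.3, and gave no bound above 1, and Ackr4 was well above background on neither array.

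Cytokines that induce CC chemokines were mostly not detected. Tnf, Il1a, Il1b, Il6, Ifng, Il4, Il13 and Csf2 were well above background on neither array. Of 20 cytokines and cytokine receptors 11 were on both, with a median log2 ratio of 0.27 and 2 at least 2-fold higher. These were Csf2rb, the shared beta chain of receptors for myeloid cytokines, at 2.40 with a second probe at 0.03, and Tnfrsf1b, a receptor of tumour necrosis factor, at 1.29, or 0.63 with normexp. The brightest genes of this list, Tnfrsf1a and Csf2ra, had 0.27 and -0.22, the latter above 0 in 2 of 10 other ways of processing. NF-kB is a transcription factor that acts on promoters of several CC chemokines, Ccl2 and Ccl5 among them. Of its subunits and feedback inhibitors 9 of 10 were on both arrays and 0 passed 2-fold, with a median of 0.37 that ranged from 0.19 to 0.65 over the other ways of processing. Among them Rela had 0.17, Nfkbia 0.37, Relb 0.67 and Tnfaip3 0.73.

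Markers of cells that make or follow CC chemokines were read beside the genes. Of the macrophage and monocyte markers, 12 of 14 matched ones were on both arrays, 5 were at least 2-fold higher, 7 were within 2-fold, 0 were lower, and the median log2 ratio was 0.90. Aif1 and Mrc1, markers of tissue macrophages, had 1.84 and 1.82, whereas the bright markers Csf1r and Itgam had 0.15 and -0.31 at their brightest probes. With the agonists Itgam read 6129 at that probe but 101 and 67.5 at its others, which had 0.64 and -0.39. The other probes of Csf1r had -0.09 and 0.04. Adgre1, which passed 2-fold at 1.42, had 0.72 at its second probe. The list summed to 31.8 on the agonist array, against 26.3 on the antagonist one, in units of each array's 75th percentile. The bright probes of Csf1r and Itgam were the largest parts of both sums. Fcgr1 was well above background with the agonists only, with a log2 ratio of 0.61 ± 0.40 (1.52-fold), and Cd163 on neither array. Of the dendritic cell markers 2 of 6 were on both arrays, with Itgax at 1.91, Zbtb46 at -0.08 and sums of 0.604 and 0.351, and Flt3, Xcr1, Clec9a and Cd209a were on neither array. Surface epithelium and mesothelium markers were on both arrays at 6 of 6, with 3 at least 2-fold higher (Krt18 at 1.03, or 0.97 with the array median, Krt19 at 1.40 and Lrrn4 at 1.79, or 0.45 with normexp), a median of 1.01 and sums of 36.2 and 17.0. Their part in the ratios of Ccl6 and the other genes was not tested.

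Markers of T and NK cells, which make Ccl5, were read in the same way. Of 10 such markers 5 were on both arrays, with a median of -0.22, a range from -0.42 to 0.10 and sums of 14.3 and 14.4. Cd3e and Cd3g were among them, at -0.22 and -0.42. Cd3g was dim, at 20.0 with the agonists and 22.7 with the antagonists. Cd3d, Cd8a and Ncr1 were on neither array. Cd8b1 and Klrb1c were well above background only with the agonists, at dim spots of 28.2 ± 4.87 and 30.7 ± 5.20, and at least 1.20-fold and 1.30-fold higher there. The second probe of Klrb1c was well above background on neither array. The part of these markers in the ratio of Ccl5 was not tested. The bright probe of Cd4 read 6019 with the agonists while its second probe read 33.2, so the level of Cd4 depends on the probe. Nkg7 read 1484 there at its brighter probe, and its second probe was at background. The sums of this list rest mostly on the bright probes of Cd4, Cd3e and Nkg7. Eosinophil markers, of interest for Ccl11, were on both arrays at 2 of 6, with a median of -0.04 and sums of 0.250 and 0.242. Siglecf was on the agonist array only, at least 1.19-fold higher at its brighter probe, and its second probe was at background. Epx and Prg2 were on neither array. Neutrophil markers were on both arrays at 2 of 7, with a median of -0.05 and sums of 124 and 136 that rest on 1 bright probe of Csf3r. Ltf, Mmp8 and S100a9 were well above background only with the agonists, at least 1.78-fold, 1.11-fold and 1.35-fold higher there, and S100a8 and Ngp were on neither array. Of the mast cell markers only Tpsb2, at -0.05, was on both arrays (sums of 0.326 and 0.312), and Cpa3 and Cma1 were on neither. The sign of these medians changed with the scaling, being above 0 in 2 of 10 other ways of processing for the T and NK cell markers, 4 for the eosinophil and mast cell markers and 6 for the neutrophil markers.

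The tissue label was checked against markers of the ovary. Oocyte markers were on both arrays at 6 of 6, with a median of 0.07 and sums of 203 and 213, and Gdf9 and Zp3 had -0.08 and -0.13, both above 0 on the spike-in scale. Bmp15 and Figla had 0.21 and 0.59. Granulosa cell markers were on both arrays at 6 of 6, with a median of -0.40 and sums of 83.5 and 107. Their ratios ran from -0.73 at Fshr, the receptor of follicle-stimulating hormone, to 0.37, and 2 of the 6 were above 0. The brightest, Inha and Foxl2, had -0.68 and 0.32, with -0.37 at the second probe of Foxl2. Fibroblast and stroma markers had a median of 0.38 with sums of 403 and 337, and endothelium markers had 0.48 at 5 of 6 genes with sums of 60.6 and 54.2. No oocyte, granulosa or fibroblast marker passed 2-fold under the 75th percentile. The sixth endothelial gene, Tek, an angiopoietin receptor, was well above background only with the agonists, at 96.5, and was at least 4.10-fold higher there. Emcn and Cdh5, at 0.93 and 0.88, passed 2-fold in 5 and 3 of the 10 other ways of processing. The brightest endothelial genes, Egfl7 and Kdr, had 0.41 and -0.27, with 0.38 at the second probe of Kdr. The part of these markers in the ratios of the CC chemokines was not tested.

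**Figure D5:**
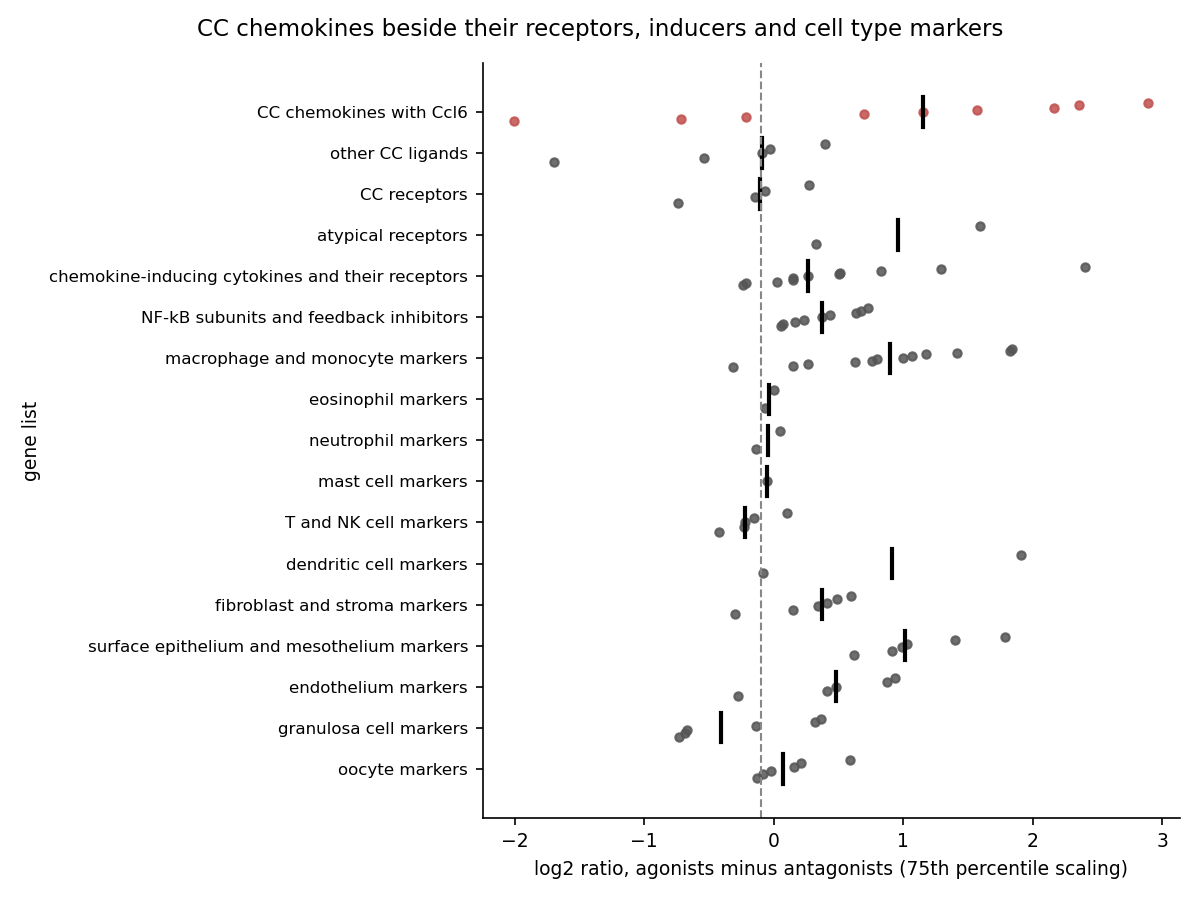
Log2 ratio of agonists to antagonists of each gene well above background on both arrays (points, spread vertically only to be seen) in the CC chemokines with Ccl6 (red) and 16 other lists (grey), with the median of each list as a black bar and the median of all probes as a dashed line. The CC chemokines spread from -2.00 to 2.89 around a median of 1.15, and macrophage and monocyte markers have a median of 0.90.

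The genes most like Ccl6 on both arrays were sought among 15257 genes by the distance of their scaled log2 signals. The 5 nearest were Ahsg, a secreted plasma glycoprotein, at a distance of 0.43, Apoc1, an apolipoprotein, at 0.54, Pla1a, a secreted phospholipase, at 0.60, Omd, a matrix proteoglycan, at 0.62, and Tmem255a at 0.64. Their log2 ratios, which the choice by distance largely fixes, ran from 2.06 at Tmem255a to 3.16 at Ahsg, beside 2.89 for Ccl6. This likeness rests on 2 arrays and on signals of different probes. No other CC chemokine was among the 5.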

How the data were processed

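The arrays were single-colour Agilent arrays, 1 per group, grouped by the sample labels. The authors had them read with Agilent Feature Extraction (10.10.1.1 per the file headers) and deposited linear spot intensity values that the software had corrected for background but not scaled between arrays, with its detection and outlier marks; they also deposited a summary intensity, used as an alternative. From the deposited intensity, log2 values were computed and reduced by the array's 75th percentile (672 and 569 signal units); control and outlier spots were left out (0 outliers among the chemokine spots) and spots of a probe averaged. More than 50% of a probe's spots had to be well above background for the probe to count so (65.4% and 61.6% of all spots were; 0 were saturated). A probe well above background on 1 array was given a lower bound. For the other array the bound took the probe's signal there or, if higher, the lowest probe signal well above background. It left out the errors of the spots. A gene with several probes was read at the one with the highest mean signal. Named were all 10 members, detected CC ligands and receptors, and the 5 nearest to Ccl6. Of each other list, genes were named from among its 2 brightest and its 2 most changed, and not all of these are printed. Markers off or on 1 array only, genes whose probes differed and the neighbouring genes were named after their values were seen. The members, lists and measures were chosen with earlier results of these data known. Of 149 list genes 142 were matched through RefSeq. A receptor of the list is not reported here. The calculations, checked on simulated data, used Python 3.11.15, pandas 2.3.3 and limma 3.58.1. The number of arrays limits the precision.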

Additional observations from a re-analysis of the deposited data

How the results depend on the processing

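No paired analysis was possible because each group had 1 array and no value came from a test. The 10 alternatives for single genes were no scaling, the array median, a 75th percentile over probes well above background on both arrays, quantile and loess normalization, the authors' summary values, the spike-in controls, normexp, the median over spots and keeping outlier spots. Over the 9 measured CC chemokines these gave 90 values, of which 68 moved by less than the error of the spots, 22 moved further and 2, both of Ccl3, changed sign. The median over spots could not change a gene read at 1 spot. Keeping outlier spots could change none, as no chemokine spot was an outlier. No scaling, the array median, the other 75th percentile, the spike-in controls and the summary values each shift all genes alike. These counts are thus not counts of independent checks. The median of the CC chemokines was 1.15 and became 1.39 without scaling, 1.43 on the spike-in scale and 0.70 with normexp. The count of CC chemokines at least 2-fold higher was 5; it was 4 with normexp, 6 without the filter on dim probes, and 3 at a threshold of 4-fold. Over all probes the counts of 890 higher and 233 lower became 1499 and 98 without scaling, 1625 and 88 on the spike-in scale, 410 and 60 with normexp, 3339 and 2333 without the filter on dim probes, and 127 and 18 at 4-fold, and 149 were lower with the authors' summary values. Of 670 values of the other named genes and lists, 75 changed sign. The cause of these changes was not tested. Signal over background limits Ccl8 and Ccl17, and leaves Ccl11 and the receptors Ccr1 and Ccr2 without a ratio.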
